A study of Mus musculus with 56 samples.

Results

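The data described here are the transcriptome of TH2 cells that lack Dohh, set against that of WT TH2 cells. The members were chosen by their labels, as the RNA sequencing libraries from CD4+ T cells polarized under TH2 conditions in the Dohh experiment, 3 from Dohh-/- and 3 from WT mice, or 6 of the 24 libraries of that experiment and 6 of the 56 samples of the series. The whole series compared Odc-/- and Dohh-/- T helper cells with WT cells in TH1, TH2, TH17 and Treg cultures. In the Dohh experiment, CD4cre mice were crossed with mice carrying loxP sites around exons 2 to 4 of Dohh. Littermates without Cre were the WT group, so the WT mice lack the Cre transgene that the Dohh-/- mice carry. Mice were typically 6 to 10 weeks old. C57BL/6 is the strain that the study's methods name for wild-type mice, and the background of the floxed Dohh line is not given there. CD4cre is active from thymic T cell development onwards and also in cells that later become CD8+ T cells, which limits the model: the gene was already deleted before the cultures began. CD4+ T cells came from spleen and lymph nodes by negative selection, and the study's methods call them naive. Cultures began on anti-CD3 (5 µg/mL) with anti-CD28 (2 µg/mL) and IL-2 (100 U/mL), and the TH2 medium held IL-4 and IL-2, each at 10 ng/mL, besides an antibody to IFN-γ at 4 µg/mL, until RNA was taken on day 4. The labels number the replicates without naming the mouse behind each one. The p-values below come from a fit of all 24 libraries of the Dohh experiment. They thus measure the spread between samples within its 8 groups, not within the 6 TH2 libraries alone.

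DOHH is deoxyhypusine hydroxylase, the enzyme that completes hypusine, an amino acid made from the polyamine spermidine on a single lysine of the translation factor eIF5A. Deoxyhypusine synthase (DHPS) makes the intermediate, and hypusinated eIF5A helps ribosomes through stretches of protein that are hard to synthesize and in terminating translation. TH2 cells are the helper lineage that GATA3 and IL-4-STAT6 signalling direct towards IL-4, IL-5 and IL-13, the cytokines of allergic and anti-helminth responses, while TH1 cells make IFN-γ under T-bet, TH17 cells make IL-17 and Treg cells depend on Foxp3.

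The libraries held 8921978 to 12554463 counts each. Values below are CPM, a gene's counts as a share of its library's total after scaling for library composition, always in the order of replicates 1, 2 and 3. Of 47937 genes in the table, 13897 had enough counts to be tested. A gene was called where its fold change passed 2 (log2 fold change beyond 1 in size) and its adjusted p in edgeR's quasi-likelihood test was below 0.05. Distances between libraries, given as the root mean square difference in log2 CPM, were 0.433 to 0.468 among WT, 0.603 to 0.719 among Dohh-/- and 1.086 to 1.44 between the genotypes. Dohh-/- replicate 1 stood nearer to WT (1.086 to 1.158) than replicates 2 and 3 did (1.315 to 1.44), so counts of genes in a list are also given without it where they differ. A count of 0 carries no information for some genes in this table: Il2rg, Rpl13, Cox4i1 and Map1lc3b, which T cells use, were listed at 0 in all 6 libraries, as were Itgam, Irf8 and Gbp4.

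The targeted gene did not fall in the libraries labelled Dohh-/-. Dohh (chr10:81384428-81388352, GRCm38, + strand) measured 71.6, 88.6 and 92.2 CPM in the Dohh-/- libraries against 36.96, 45.8 and 34.8 CPM in WT, and each Dohh-/- library was above each WT library (log2 fold change 1.10 ± 0.26 (SE), adjusted p = 0.00167). These are counts over the whole gene, 47.5% of whose exons another annotated gene of the same strand also covers, and the deleted exons were not counted separately, so the value does not test the deletion, and the groups rest on the labels. The rest of the pathway was also higher, with an adjusted p below 0.05 for each gene. Eif5a, the substrate, measured 1795, 1781 and 2151 CPM against 928, 907 and 809 CPM (log2 fold change 1.12 ± 0.24 (SE), adjusted p = 0.000831). Its paralog Eif5a2 measured 9.23, 7.64 and 11.1 CPM against 2.96, 4.12 and 4.26 CPM (log2 fold change 1.31 ± 0.24 (SE), adjusted p = 0.000222). Dhps did not reach the call, at 59.4, 59.7 and 71.3 CPM against 35.5, 38.5 and 35.2 CPM (log2 fold change 0.80 ± 0.21 (SE), adjusted p = 0.00355), with no overlap between the groups.

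Markers of T cells and of other cells were read before the comparison. Cd4, the coreceptor that defines the cells, measured 68.2, 51.9 and 53.1 CPM in the Dohh-/- libraries against 766, 678 and 661 CPM in WT (log2 fold change -3.60 ± 0.25 (SE), adjusted p = 1.27e-09). Every Dohh-/- library was thus well below every WT library. The log2 fold change of Cd4 was -4.55 in TH1, -3.73 in TH17 and -4.65 in Treg cells, and its difference from the TH2 value was not called in the interaction test described last. Genes of the CD3 complex (Cd3d, Cd3e and Cd3g) and the Tcrb constant genes Trbc1 and Trbc2 were not called, whereas Trac, the constant gene of the T cell receptor alpha chain, measured 97.6, 73.97 and 82.2 CPM against 303, 348 and 296 CPM (-1.90 on the log2 scale). Trdc, the constant gene of the delta chain, measured 423, 326 and 282 CPM against 32.6, 23.8 and 19.7 CPM (log2 fold change 3.76 ± 0.30 (SE), adjusted p = 6.91e-09), and the gamma chain constant genes Tcrg-C1, Tcrg-C2 and Tcrg-C4, looked up after the values of Trdc were seen, differed by 4.33, 4.30 and 4.45. Of the CD8 coreceptor genes, Cd8a measured 5.98, 16.7 and 18.4 CPM against 4.36, 2.43 and 3.59 CPM (1.97). Cd8b1 measured 7.13, 7.13 and 9.44 CPM against 15.6, 20.9 and 14.1 CPM (-1.10), and its call was lost without WT replicate 2 (-0.95).

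Marker genes of other cell types were then summed over each list, tested or not, and most of the sums were higher in the Dohh-/- group. Some of these markers, such as Ms4a2, Tpsb2, Fcgr1 and Hbb-bs, had no WT count. The summed CPM of 12 basophil and mast cell genes was 82.5, 502 and 539.5 CPM in the Dohh-/- libraries against 5.27, 7.19 and 6.39 CPM in WT, and 11 of them were called higher, beside 14.3% of all genes, with replicate 1 far below the other two. Of 11 tested myeloid genes 9 rose, but the sum over the list of 12 was 36.4, 818 and 101 CPM in the Dohh-/- libraries against 38.03, 35.3 and 25.8 CPM in WT, so replicate 1 lay within the WT range and replicate 2 stood apart. The count fell to 3 without Dohh-/- replicate 2, WT replicate 1 or WT replicate 3, while Ly6g and Cd68 were not called. The 10 erythroid and platelet genes summed to 73.5, 116 and 188 CPM in the Dohh-/- libraries against 12.7, 9.83 and 8.18 CPM in WT, and 5 of the 7 tested rose. The 11 CD8+ T cell and NK cell genes summed to 153, 156 and 235 CPM in the Dohh-/- libraries against 32.4, 34.2 and 32.6 CPM in WT, with 7 of 10 tested called higher and 1 lower, beside 14.3% and 11.6% of all genes. The 4 gamma-delta T cell genes in the table summed to 441, 337 and 302 CPM in the Dohh-/- libraries against 38.5, 26.5 and 22.8 CPM in WT, nearly all of it Trdc, given above, and 2 of them rose, Trdc and Sox13, while Blk and Zbtb16 were not called. The sums of the 8 B cell genes overlapped between the groups, at 64.6, 48.3 and 63.6 CPM in the Dohh-/- libraries against 84.2, 41.9 and 50.1 CPM in WT. In these bulk libraries more cells of a type and more RNA per cell cannot be told apart, and the part of these cells in the results below was not tested.

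**Figure D1:**
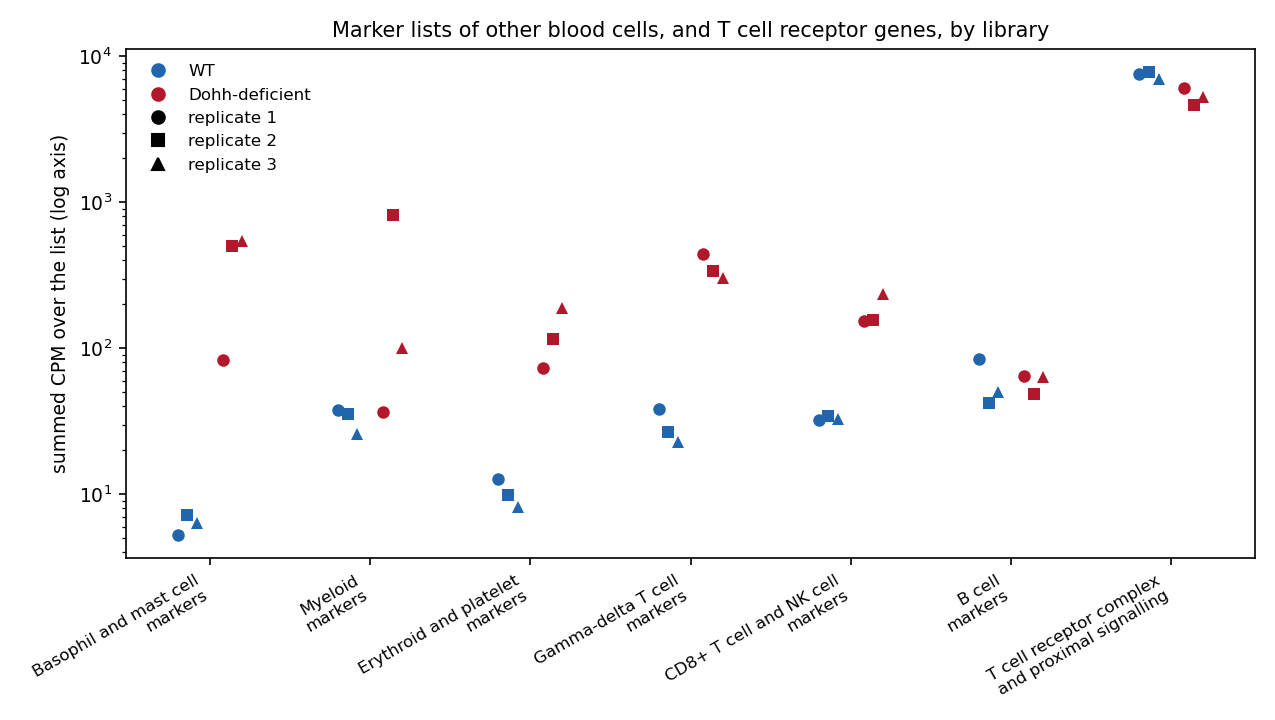
Summed CPM (y axis, log scale) over marker lists of other blood cells and over T cell receptor genes, 1 point for each of the 3 Dohh-/- (red) and 3 WT (blue) TH2 libraries, with a symbol for each replicate number. The basophil and mast cell sum reached 502 and 539.5 CPM in Dohh-/- replicates 2 and 3 but 82.5 CPM in replicate 1, all above the WT libraries, and the myeloid sum of replicate 1 fell among the WT libraries.

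Of the 13897 genes, 3595 (25.9%) were called, 1984 (14.3%) higher and 1611 (11.6%) lower in Dohh-/- TH2 cells. By adjusted p alone 3311 genes (23.8%) were higher and 2983 (21.5%) lower, while the median log2 fold change over all genes was 0.018. The gains reached further than the losses: 424 genes were more than 16-fold higher by the fitted value and 70 more than 16-fold lower. Of the genes called higher, 109 had no count and 197 had 1 to 3 counts in WT. Of those called lower, 18 had no count and 58 had 1 to 3 counts in the Dohh-/- group. How many of the genes beyond 16-fold these include was not counted. Among called genes at 10 CPM or more in their higher group, 1084 were higher and 1035 lower. Without Dohh-/- replicate 1, 3312 of the 3595 genes (92.1%) were called in the same direction and none in the opposite one, and in 2090 of the 3595 (58.1%) replicate 1 was the Dohh-/- library nearest to WT.

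**Figure D2:**
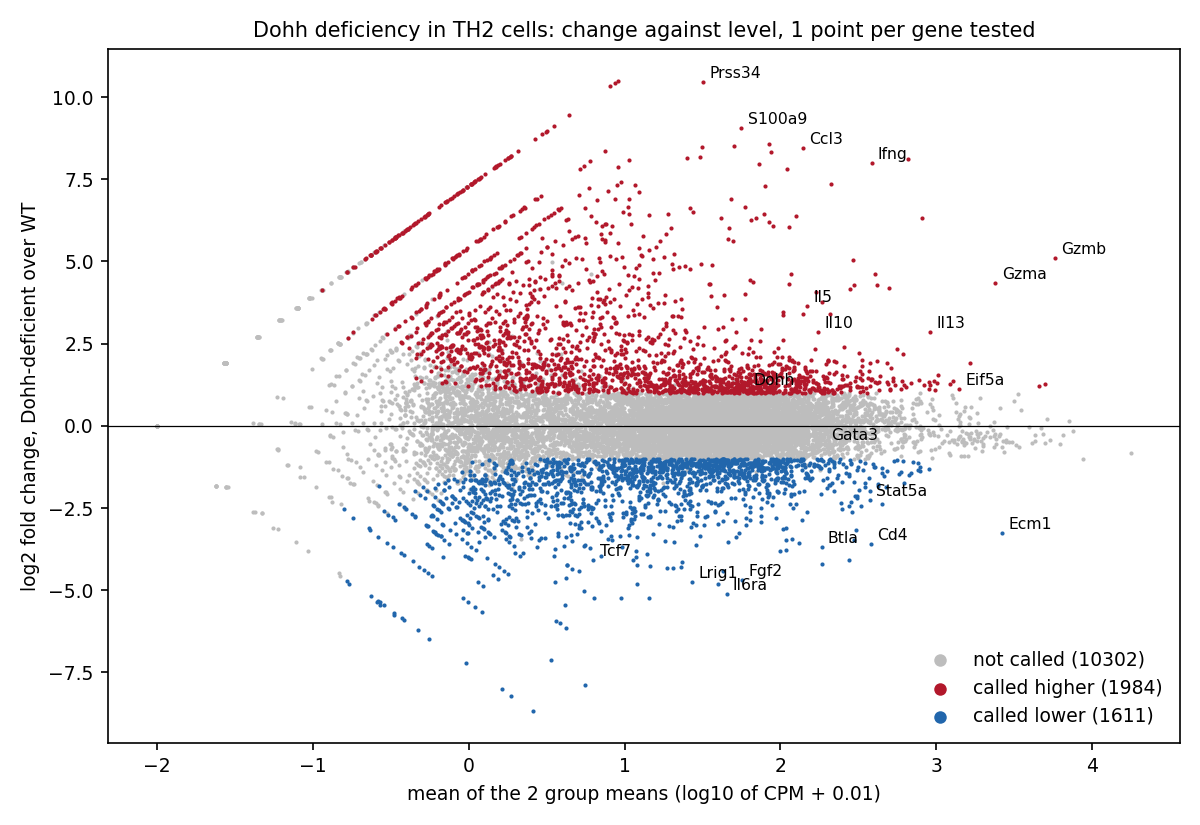
Log2 fold change of Dohh-/- over WT TH2 cells (y axis) for each of the 13897 tested genes against the mean of the group means (x axis, log10 of CPM + 0.01), with the 1984 genes called higher in red, the 1611 called lower in blue and some genes of the text labelled. The points above 0 extend further than those below at low CPM.

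The 10 largest gains among genes at 10 CPM or more included Prss34, S100a8 and S100a9, which are genes of mast cells, basophils or neutrophils. Prss34, a mast cell and basophil protease, measured 4.83, 106 and 81.0 CPM in the Dohh-/- libraries against 0.0823, 0 and 0 CPM in WT, a ratio of 1962 (95% counting interval 352 to 77552) between the groups. Clec5a, a myeloid lectin receptor, had no WT count and was at least 188-fold higher, and Hp (haptoglobin) and Plet1, also without WT counts, were higher by at least 178-fold and at least 167-fold. Here and below a bound sets the group without counts at 3 counts over its 3 libraries. Nfe2, a transcription factor of the erythroid and platelet lineages, gave a ratio of 458 (95% counting interval 81.8 to 18141). S100a8, a subunit of neutrophil calprotectin, measured 1.26, 286 and 14.5 CPM against 0.0823, 0.529 and 0.224 CPM. S100a9, the other subunit, measured 2.31, 320.3 and 13.6 CPM against 0.165, 0.423 and 0 CPM. Replicate 2 held most of the signal of this pair, and both calls were lost without that library (adjusted p = 0.137 and 0.133), without WT replicate 1 (0.0587 and 0.0565) and without WT replicate 3 (0.0541 and 0.0557). Clec5a and Plet1 lost theirs when only the 6 TH2 libraries were fitted, with adjusted p = 0.175 and 0.152. Lpl, lipoprotein lipase, measured 6.295, 155 and 25.6 CPM against 0.247, 0.106 and 0.112 CPM (log2 fold change 8.47 ± 1.79 (SE), adjusted p = 0.00139), or 6.50 on the log2 scale without replicate 2. Gzme and Ccl3, described below with the granzymes and chemokines, completed the set.

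The largest losses were of another kind, many of them surface or signalling genes. Il6ra, the IL-6 receptor alpha chain of naive T cells, measured 2.203, 3.77 and 1.48 CPM in the Dohh-/- libraries against 78.9, 84.1 and 100.2 CPM in WT (log2 fold change -5.13 ± 0.40 (SE), adjusted p = 6.64e-09). Notch3, a Notch receptor, measured 0.105, 1.32 and 0 CPM against 21.3, 17.02 and 17.2 CPM (-5.22, and -8.15 without replicate 2). Dapl1, known in naive T cells, measured 0.4197, 0.102 and 0.424 CPM against 6.67, 14.3 and 10.8 CPM (-5.02). Lrig1, a restrainer of growth factor receptors, and Nrn1, neuritin, differed by -4.75 and -4.80, and Fibcd1, Tmie, Carmil3 and Fgf2 by -5.25, -5.23, -4.82 and -4.69, with Tmie at -6.00 without replicate 2. For gains and losses alike, the rule that chose the genes required groups without overlap.

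The TH2 program moved in both directions: 6 of 19 tested genes rose, 3 fell and 10 were not called (median log2 fold change -0.25), and the counts were 6 and 4 without Dohh-/- replicate 1. Beside the background of 14.3% and 11.6%, these are 31.6% and 15.8%. Gata3, the lineage factor, was lower in every Dohh-/- library, at 176, 159.7 and 133 CPM in the Dohh-/- libraries against 247, 219.9 and 228 CPM in WT, but by less than the fold required (log2 fold change -0.57 ± 0.21 (SE), adjusted p = 0.0334). Il4 overlapped between the groups, at 57.5, 52.9 and 31.6 CPM against 52.9, 63.1 and 70.4 CPM (log2 fold change -0.39 ± 0.33 (SE), adjusted p = 0.346). Il5 and Il13, the effector cytokines of eosinophil and mucosal responses, rose: Il5 measured 329.7, 202 and 291 CPM against 23.2, 23.8 and 19.1 CPM (log2 fold change 3.64 ± 0.28 (SE), adjusted p = 4.73e-09) and Il13 1975, 1346 and 1518 CPM against 233, 251 and 183 CPM (log2 fold change 2.86 ± 0.31 (SE), adjusted p = 4.43e-07). Il10, an anti-inflammatory cytokine, measured 336, 268 and 313 CPM against 43.6, 41.9 and 42.4 CPM (log2 fold change 2.84 ± 0.30 (SE), adjusted p = 3.64e-07) and Areg, the growth factor amphiregulin, differed by 2.84. Il1rl1, the IL-33 receptor that basophils and mast cells also carry, measured 4.41, 24.6 and 31.6 CPM against 0.823, 0.952 and 0.673 CPM (log2 fold change 4.60 ± 0.68 (SE), adjusted p = 2.81e-05). Among the losses, Ecm1, a secreted protein of TH2 cells, fell in every library, at 705, 506 and 291 CPM against 6464, 3856 and 4039.9 CPM (log2 fold change -3.26 ± 0.29 (SE), adjusted p = 4.05e-08), and the IL-4 receptor chain Il4ra measured 571, 539 and 454 CPM against 1496, 1249 and 1114 CPM (log2 fold change -1.30 ± 0.15 (SE), adjusted p = 1.05e-06). The chemokine receptor Ccr4 differed by -1.71. The basophil and mast cell sum given above was also higher in the Dohh-/- group, and the part of those cells in the values of this list was not tested.

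These cytokine genes lie together on chromosome 11 (GRCm38), and the neighbours did not move as a block. Il4 (chr11:53602982-53618669, − strand) and Il13 (chr11:53631324-53634702, − strand) are adjacent, Rad50 (chr11:53649519-53707319) lies between them and Il5 (chr11:53720794-53725106, + strand), and Kif3a (chr11:53567379-53601967) and Irf1 (chr11:53770014-53778374) flank the group. Along the chromosome the log2 fold changes were -0.37 for Kif3a, -0.39 for Il4, 2.86 for Il13, -0.25 for Rad50, 3.64 for Il5 and 0.21 for Irf1, and only Il13 and Il5 of these 6 were called. An antisense gene covers part of Il5, 27.1% of its exons, and the strand setting of the counting is not given in the sources used here, so its reads could not be split from those of that gene.

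**Figure D3:**
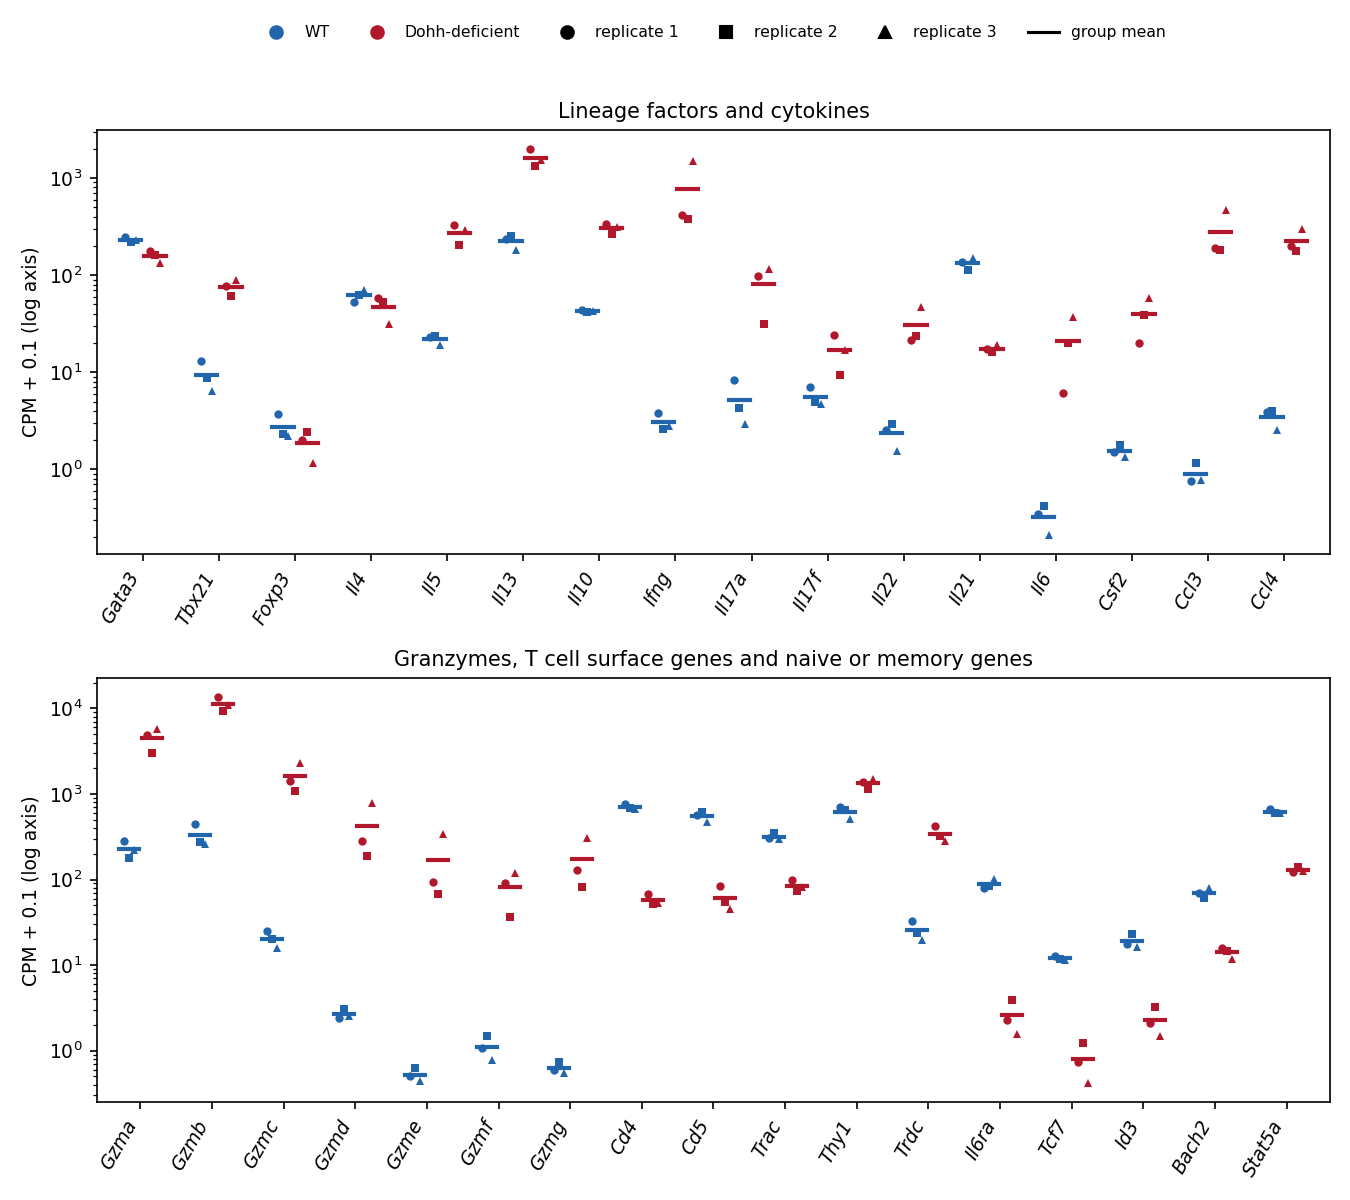
CPM + 0.1 (y axis, log scale) of lineage factors and cytokines (upper panel) and of granzymes, T cell surface genes and naive or memory genes (lower panel), 1 point per TH2 library, with Dohh-/- in red, WT in blue, a symbol for each replicate number and lines at the group means. Ifng lay at 419, 379 and 1499.9 CPM in Dohh-/- and 3.704, 2.54 and 2.69 CPM in WT, whereas the Il4 points of the groups overlap.

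Genes of the other lineages were then examined, in which TH2 conditions with IL-4 and anti-IFN-γ are meant to keep expression low. Of 20 TH1 genes, 13 rose and 1 fell (median 2.23, the same with a gene of very few WT counts set at its ratio), or 65.0% higher against the background of 14.3%, and the counts were 13 and 1 without replicate 1. Ifng (chr10:118441046-118445892) measured 419, 379 and 1499.9 CPM in the Dohh-/- libraries against 3.704, 2.54 and 2.69 CPM in WT (log2 fold change 7.99 ± 0.59 (SE), adjusted p = 4.19e-09), with Dohh-/- replicate 3 the highest and no overlap with WT. Without that library the log2 fold change of Ifng was 7.05. Another annotated gene of the same strand covers 25.9% of its exons. Tbx21, which encodes T-bet, measured 78.1, 61.03 and 89.9 CPM against 13.01, 8.56 and 6.39 CPM (log2 fold change 3.02 ± 0.35 (SE), adjusted p = 1.01e-06) and Eomes, the related T-box factor of cytotoxic cells, differed by 3.97. Ccl3, a chemokine gene, measured 189, 179.5 and 467 CPM against 0.659, 1.06 and 0.673 CPM (8.44, and 7.85 without replicate 3). Its neighbour in function Ccl4 measured 199.8, 175 and 299 CPM against 3.79, 3.91 and 2.47 CPM (6.04). Xcl1, another chemokine of TH1 and cytotoxic cells, gave a ratio of 68.9 (95% counting interval 18.7 to 575). Of the receptors, Il18rap and Il18r1, both chains of the IL-18 receptor, differed by 3.63 and 1.57, whereas the IL-12 receptor genes Il12rb1 and Il12rb2 were not called (-0.13 and 0.14). Cxcr3, the only one of the list that fell, differed by -1.02 and lost its call without WT replicate 1 (-0.83). The CD8+ T cell and NK cell marker sum given above was also higher in all 3 Dohh-/- libraries.

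The TH17 list moved in both directions, with 7 of 16 genes higher and 4 lower (median 0.18, 7 and 4 without replicate 1), or 43.8% and 25% beside backgrounds of 14.3% and 11.6%. Il17a measured 97.8, 31.7 and 115 CPM in the Dohh-/- libraries against 8.23, 4.23 and 2.803 CPM in WT (log2 fold change 3.97 ± 0.56 (SE), adjusted p = 1.61e-05) and Il22 21.5, 23.5 and 46.97 CPM against 2.47, 2.85 and 1.46 CPM (log2 fold change 3.75 ± 0.63 (SE), adjusted p = 7.82e-05). Il17f and the IL-23 receptor gene Il23r were higher too, by 1.61 and 3.11. Ahr, a ligand-activated factor, went the other way (log2 fold change -2.37, adjusted p = 0.000237), as did the cytokine Il21 (-2.93). On chromosome 1 the 3 neighbours Il17a (chr1:20730905-20734496), Il17f (chr1:20777146-20790617) and the replication gene Mcm3 (chr1:20802968-20820312) differed by 3.97, 1.61 and 1.11, the last losing its call without Dohh-/- replicate 3 (0.94) or WT replicate 3 (0.99). In the chromosome 10 interval Il22 (chr10:118204942-118210047) and Ifng rose while Mdm1 between 118141811 and 118168997 was not called (0.81). At the Il10 family locus of chromosome 1, Il10 (chr1:131019845-131024974) rose while its neighbours Il24 and Mapkapk2 were not called (0.48 and -0.28).

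The Treg list had 1 of 14 genes higher and 5 lower (median -0.58), or 7.14% and 35.7% beside backgrounds of 14.3% and 11.6%. Foxp3 overlapped between the groups, at 1.89, 2.34 and 1.06 CPM against 3.62, 2.22 and 2.13 CPM (log2 fold change -0.61 ± 0.64 (SE), adjusted p = 0.457). Izumo1r (folate receptor 4) measured 49.8, 45.2 and 50.1 CPM against 548, 591 and 485 CPM (log2 fold change -3.48 ± 0.36 (SE), adjusted p = 2.78e-07), and Gpr83, Nrp1, Lrrc32 and Ebi3 were lower by the test as well, at -2.59, -1.56, -1.55 and -1.37. Ikzf2, the factor Helios, was the exception, at 17.3, 10.5 and 20.2 CPM against 5.51, 2.85 and 5.16 CPM (1.82). Lineage genes were also taken from the WT libraries of the Odc experiment, as up to 100 genes most specific to each subset, which none of the 6 libraries here entered. Of the 82 tested genes most specific to WT TH2 cells, 14 rose and 35 fell (median -1.04), or 17.1% and 42.7%. The genes specific to TH1 cells did the reverse, 52 of 91 higher and 11 lower (median 2.07), or 57.1% and 12.1%. Those of TH17 cells gave 39 higher and 9 lower of 88 (median 1.45), or 44.3% and 10.2%. Their 5 largest gains were Hp, Tbc1d9, Msr1, Dab2 and Il1b, of which Hp, Msr1 and Il1b are also genes of myeloid cells, whose marker sum was given above. The genes most specific to WT Treg cells gave 25 higher and 4 lower of 86 (median 0.91, and 0.37 with at most 50 genes), or 29.1% and 4.65%, the opposite direction to the Treg list. Their 5 largest gains were Aldh1a2, the globin gene Hbb-bt, Tmem273, Tnfrsf11a and Xcl1. The part of other cells in these signatures was not tested. Without Dohh-/- replicate 1 the TH2 and TH1 signatures gave 11 higher and 33 lower, and 50 higher and 11 lower, and the TH17 and Treg signatures 40 higher and 8 lower, and 26 higher and 2 lower.

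Granzymes, the serine proteases that cytotoxic lymphocytes release with perforin, were the list in which every tested member rose: 10 of 10, beside 14.3% of all genes, with a median of 5.70, and 10 of 10 without replicate 1 (median 4.91). Gzmb measured 13440.3, 9255 and 11086 CPM in the Dohh-/- libraries against 452, 277 and 257 CPM in WT (log2 fold change 5.10 ± 0.47 (SE), adjusted p = 4.82e-08), and Gzma, encoded on chromosome 13, 4899, 3008 and 5810.3 CPM against 281, 177 and 222 CPM (log2 fold change 4.33 ± 0.39 (SE), adjusted p = 4.22e-08). Gzmc measured 1437, 1074 and 2324 CPM against 24.6, 20.3 and 15.9 CPM (6.31). The groups did not overlap in these 3 genes, and each is a lytic granule protease. Gzmd measured 279, 189 and 795 CPM against 2.305, 2.96 and 2.47 CPM, or 7.35 on the log2 scale and 6.50 without Dohh-/- replicate 3. Gzme measured 94.1, 68.6 and 341 CPM against 0.412, 0.529 and 0.336 CPM (8.58, and 7.53 without that library). Gzmg measured 130.0, 81.5 and 310.0 CPM against 0.494, 0.634 and 0.448 CPM (8.34, and 7.62 without it). In all 3 the Dohh-/- replicate 3 was the highest and the groups did not overlap. Prf1, perforin, measured 726, 370.1 and 609 CPM against 25.6, 14.2 and 11.4 CPM (log2 fold change 5.05 ± 0.56 (SE), adjusted p = 1.02e-06), and Gzmk and Gzmm, outside the cluster, differed by 3.03 and 1.65. Gzmb to Gzmg stand in 1 cluster on chromosome 14 with mast cell and neutrophil proteases: in order along it, Cma1, Mcpt8, Ctsg, Gzme, Gzmd, Gzmg, Gzmf, Gzmc and Gzmb, from 55941451 to 56262260. All of these were called higher, Mcpt8, a basophil protease, at 17.4, 133 and 137 CPM against 0.659, 0.846 and 0.897 CPM and Cma1, a mast cell chymase, by 3.71 (3.11 without replicate 3), while Ctsg, cathepsin G, gave a ratio of 279 (95% counting interval 76.8 to 2309.7). Gzmn within the cluster had too few counts to be tested.

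The promoters of the Gzmd, Gzme, Gzmf and Gzmg genes are shown because these neighbours on chromosome 14 all rose. The windows are from RefSeq promoters of GRCm38.p6, 5′ to 3′ on the gene's − strand: chr14:56132670-56132797 for Gzmd, chr14:56120703-56120830 for Gzme, chr14:56211505-56211632 for Gzmf and chr14:56159672-56159799 for Gzmg. Capitals mark the letters TGTGGT, the core to which Runt domain factors bind, or its reverse complement, and both strands were searched.
Gzmd: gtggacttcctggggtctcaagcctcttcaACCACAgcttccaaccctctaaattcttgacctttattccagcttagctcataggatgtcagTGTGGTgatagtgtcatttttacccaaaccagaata
Gzme: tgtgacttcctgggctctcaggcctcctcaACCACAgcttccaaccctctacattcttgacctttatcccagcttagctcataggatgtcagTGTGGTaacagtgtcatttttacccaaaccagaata
Gzmf: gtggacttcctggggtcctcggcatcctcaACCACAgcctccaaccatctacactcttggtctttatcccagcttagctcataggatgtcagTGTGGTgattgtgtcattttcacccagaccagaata
Gzmg: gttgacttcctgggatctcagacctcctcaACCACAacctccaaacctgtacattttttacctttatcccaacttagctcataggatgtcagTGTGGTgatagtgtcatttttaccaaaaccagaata
Position by position, without gaps, Gzmd and Gzme shared 118 of 128 bases (92.2%) and the other pairs 83.6 to 89.1%, so matches in them are not independent. Across the list, 9 of 11 genes held the motif in a promoter, against 18.9% of all 27025 genes with a promoter. Each promoter had 300 bases (250 before and 50 after the start). Of genes called higher 20.9% held it, of genes called lower 16.5% and of genes not called 14.9%. The letters are a description of the sequence, not a bound site. These 4 genes belong to a multigene family, and whether reads of one were counted for another was not tested, so their separate values are uncertain.

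Of 16 cytokines outside the lineage lists 5 were higher and 3 lower (median 0.68), or 31.2% and 18.8% beside backgrounds of 14.3% and 11.6%, and 7 and 3 without replicate 1. Csf2, encoding GM-CSF, measured 20.1, 39.2 and 58.7 CPM in the Dohh-/- libraries against 1.399, 1.69 and 1.23 CPM in WT (log2 fold change 4.76 ± 0.63 (SE), adjusted p = 6.66e-06), and Il6, a pro-inflammatory cytokine, 6.09, 20.1 and 36.9 CPM against 0.247, 0.317 and 0.112 CPM (6.45, and 5.76 without replicate 3). Il1b, an inflammatory cytokine chiefly of myeloid cells, measured 4.51, 18.03 and 20.04 CPM against 0.0823, 0.211 and 0.336 CPM (6.08). Lta (lymphotoxin alpha) and Tnfsf14 (LIGHT) fell, with log2 fold changes of -1.84 and -1.93. Il2 and Tnf were not called, at 1.26 and 0.46. The list of coinhibitory receptors, which restrain T cell activation, also held ligands and Tox factors. It moved in both directions: 5 of its 14 genes were higher and 3 lower (35.7% and 21.4%). Havcr2, encoding Tim-3, measured 88.1, 70.0 and 132 CPM against 3.05, 1.06 and 1.57 CPM (log2 fold change 5.63 ± 0.48 (SE), adjusted p = 2.86e-08), and Cd160, Cd244a, Entpd1 (CD39) and Pdcd1 (PD-1) differed by 5.15, 3.76, 2.01 and 1.45. Btla, another inhibitory receptor, fell at 30.7, 32.6 and 16.4 CPM against 290.0, 332 and 401 CPM (log2 fold change -3.68 ± 0.31 (SE), adjusted p = 1.30e-08), with the transcription factor Tox (-2.81) and the ligand Cd200 (-2.63). Ctla4, Lag3 and Tigit were not called.

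Genes of naive and memory T cells were lower more often than higher, 8 of 17 against 1 (median -0.50), or 47.1% lower beside the background of 11.6%. Tcf7, which encodes TCF-1, measured 0.6295, 1.12 and 0.318 CPM in the Dohh-/- libraries against 12.6, 11.7 and 11.4 CPM in WT (log2 fold change -4.08 ± 0.84 (SE), adjusted p = 0.000748). Id3 and Bach2, transcriptional regulators of quiescent T cells, differed by -3.11 and -2.33, and the homing receptor gene Ccr7 by -1.16. Id2, the counterpart of Id3 in effector cells, rose, at 518, 286 and 396 CPM against 162, 166 and 159 CPM (log2 fold change 1.30 ± 0.34 (SE), adjusted p = 0.00373). Of 17 genes of the T cell receptor complex and its proximal signalling, 5 fell (29.4%, and 6 genes without Dohh-/- replicate 1) and 1 rose: besides Cd4 and Trac these were Cd5, a negative regulator of receptor signalling (-3.17), the adhesion gene Cd2 (-1.72), the costimulatory receptor gene Cd28 (-1.17) and, higher, Thy1 (1.10, and 0.98, under the threshold, without WT replicate 3). The kinase genes Zap70 and Lck were not called.

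Receptors and factors that carry cytokine signals were lower in part. Of 7 STAT genes, Stat5a and Stat5b, which transmit IL-2 signals, fell, and by adjusted p alone 6 were lower, beside a background of 21.5%. Stat5a measured 123, 138 and 126 CPM against 662, 605 and 604 CPM (log2 fold change -2.27 ± 0.17 (SE), adjusted p = 4.31e-09). Stat5b measured 124, 119 and 108 CPM against 396, 364 and 389 CPM (log2 fold change -1.71 ± 0.21 (SE), adjusted p = 2.15e-06), again with no overlap between the groups. Stat6, which transmits IL-4 signals, was not called (log2 fold change -0.55 ± 0.19 (SE), adjusted p = 0.0224). Of 22 cytokine receptor and SOCS genes 6 fell (27.3%) and 2 rose, and without replicate 1 the counts were 8 and 2. Socs3, a feedback inhibitor, and Tgfbr1, a TGF-β receptor chain, differed by -1.74 and -1.59, while the IFN-γ receptor chains parted, Ifngr1 at 1.91 and Ifngr2 at -1.53. Of 13 chemokine receptor genes Cxcr6 and Ccr1 rose (4.37 and 5.12) and Ccr4, Ccr7 and Cxcr3 fell (15.4% and 23.1%, beside backgrounds of 14.3% and 11.6%), and without Dohh-/- replicate 1 4 fell. Among 15 AP-1, BATF and IRF genes 2 fell and 2 rose, or 13.3% each way, close to the share of all genes. Irf4, which activated T cells need for effector differentiation, measured 224, 212 and 184 CPM against 803, 685 and 756 CPM (log2 fold change -1.85 ± 0.22 (SE), adjusted p = 1.13e-06), and Batf2 and Irf7 rose by 3.87 (3.11 without replicate 2) and 1.75, whereas Batf, Junb and Fos were not called.

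**Figure D4:**
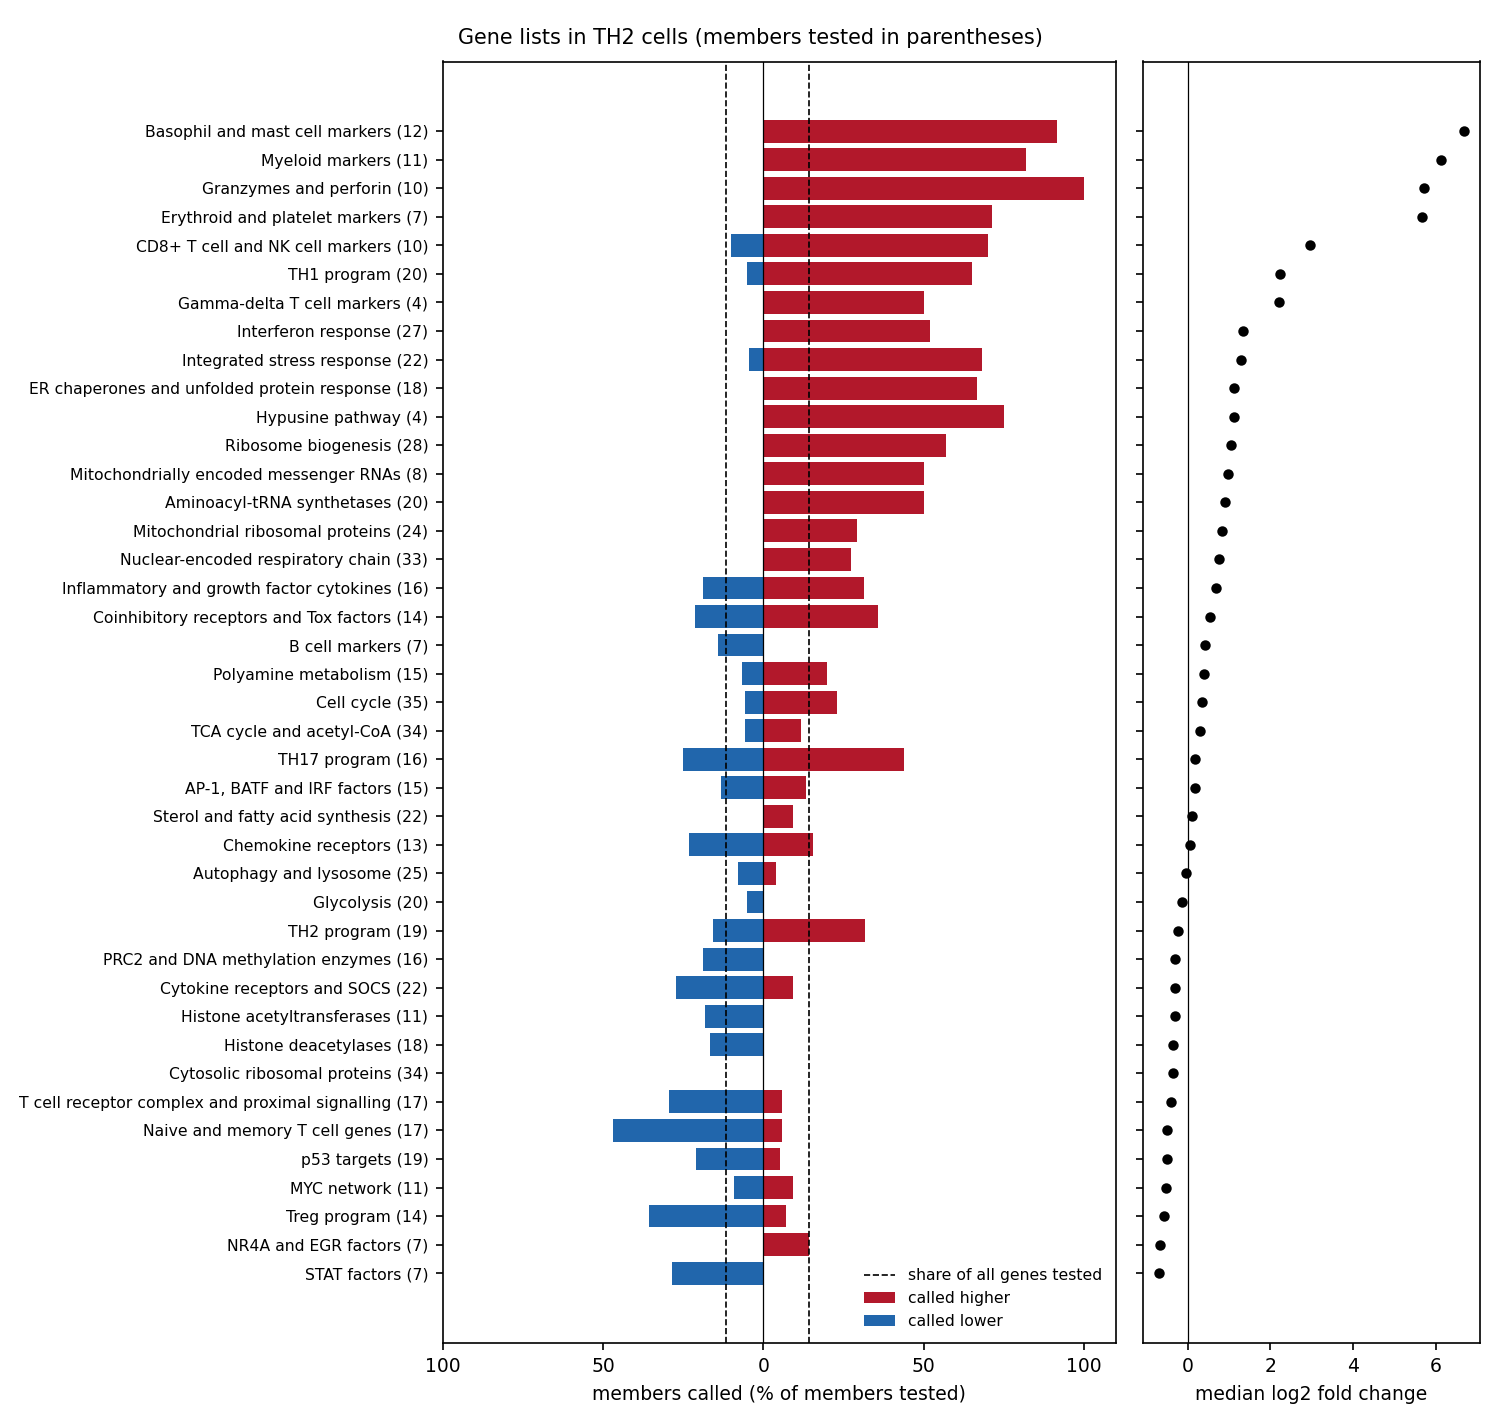
For each gene list (members tested in parentheses), the left panel gives the percentage of tested members called higher (red) and lower (blue) in Dohh-/- TH2 cells, with dashed lines at the share of all tested genes, 14.3% and 11.6%, and the right panel the median log2 fold change. Granzymes reach 100.0% higher, and the naive and memory list 47.1% lower.

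Translation and protein folding genes were examined because hypusine acts on a translation factor. Of 34 cytosolic ribosomal protein genes none was called in either direction by edgeR or DESeq2, their median was -0.35, and 4 were lower by adjusted p alone, where 21.5% of all genes were. At an unadjusted p below 0.05, 10 were lower and 0 higher, beside 24.8% and 27.4% of all genes. Rps27 was called lower without Dohh-/- replicate 1 (-1.16, where the median of the list was -0.53) and without WT replicate 1 (-1.08), against -0.92 with all libraries. Genes for making ribosomes moved differently, 16 of 28 higher (median 1.04, 57.1%, beside a background of 14.3%). Gar1, of the guide-RNA particles that modify ribosomal RNA, measured 71.2, 84.9 and 101 CPM in the Dohh-/- libraries against 23.95, 29.2 and 23.2 CPM in WT (log2 fold change 1.75 ± 0.28 (SE), adjusted p = 4.06e-05), and Ncl (nucleolin), 847, 1186 and 1348 CPM against 362, 477 and 442 CPM (1.40). Of 20 aminoacyl-tRNA synthetase genes 10 rose (median 0.91), or 50%. Wars, for tryptophan, measured 184, 191 and 205 CPM against 60.6, 48.2 and 41.5 CPM (log2 fold change 1.95 ± 0.20 (SE), adjusted p = 2.27e-07), and Nars and Hars differed by 1.51 and 1.48. Without replicate 1 the synthetase and ribosome biogenesis lists gave 10 and 16 genes higher.

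Targets of the integrated stress response, the ATF4-driven program that cells use when translation or amino acid supply is impaired, were higher in 15 of 22 and lower in 1 (median 1.29), or 68.2% higher, beside 14.3% of all genes, and 14 were higher without replicate 1. Slc7a11, the cystine transporter, measured 6.71, 18.3 and 10.9 CPM in the Dohh-/- libraries against 0, 0.423 and 0 CPM in WT (log2 fold change 6.37 ± 1.26 (SE), adjusted p = 0.000504), and the fitted value was 5.71 without WT replicate 1 and 9.86 without WT replicate 2, which held its only WT counts. Chac1, which degrades glutathione, measured 23.8, 23.4 and 26.6 CPM against 4.198, 4.55 and 2.47 CPM (log2 fold change 2.71 ± 0.38 (SE), adjusted p = 9.32e-06), and Asns (asparagine synthetase), 301, 246 and 283 CPM against 58.4, 54.5 and 50.9 CPM (2.34). The serine pathway genes Phgdh, Psat1, Psph and Shmt2 rose by 2.00, 1.19, 1.63 and 1.90, and Atf4 itself by 1.14. Ddit3 (CHOP), Ppp1r15a (GADD34) and Sesn2, also targets of stress signalling, were not called (-0.06, -0.55 and 0.09), and Vldlr was lower (-1.23), a call that was lost without Dohh-/- replicate 3 (-0.92). Of 18 genes for chaperones of the endoplasmic reticulum (ER) and the unfolded protein response, 12 rose (median 1.13), or 66.7%, beside 14.3% of all genes. Hspa5, the chaperone BiP, measured 1255, 1286 and 1317 CPM against 524, 551 and 549 CPM (log2 fold change 1.25 ± 0.16 (SE), adjusted p = 5.33e-06) and Hsp90b1 1209.5, 1170.3 and 1489 CPM against 484, 502 and 537 CPM (1.34). Creld2 and Sdf2l1, further ER proteins induced by unfolded proteins, differed by 2.25 and 2.10, whereas Xbp1 was not called (-0.17).

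Promoter sequence is shown for members of these lists, as the motifs by which ATF6 and ATF4 are known to act are defined by letters. The ER stress element was found on either strand in 7 of the 16 ER genes with a RefSeq promoter and in 37 of all 27025 such genes (0.137%). It was in 0.477% of genes called higher, 0.341% of genes called lower and 0.104% of genes not called. Windows of 30 bases around it, 5′ to 3′ in GRCm38.p6, are chr2:34771995-34772073 (+ strand) for Hspa5, chr10:86705503-86705581 (−) for Hsp90b1, chr15:88819490-88819568 (+) for Creld2 and chr12:17266461-17266539 (+) for Pdia6, with the element in capitals.
Hspa5: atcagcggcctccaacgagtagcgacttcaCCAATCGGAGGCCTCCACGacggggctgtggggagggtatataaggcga
Hsp90b1: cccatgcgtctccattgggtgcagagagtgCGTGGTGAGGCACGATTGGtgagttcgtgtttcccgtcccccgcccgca
Creld2: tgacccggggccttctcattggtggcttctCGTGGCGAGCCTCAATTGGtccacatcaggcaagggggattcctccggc
Pdia6: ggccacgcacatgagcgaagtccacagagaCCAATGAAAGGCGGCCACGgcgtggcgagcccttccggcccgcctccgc
All 4 of these genes rose (Hspa5 1.25, Hsp90b1 1.34, Creld2 2.25 and Pdia6 1.50), but a match did not set the called genes of the list apart: 5 of 7 tested genes with a match rose, and 6 of 9 without one. The composite letters TTGCATCA are bound by ATF4 with C/EBP proteins. Of genes with a promoter, 6 of 21 in the stress response list and 4 of 12 synthetases held them. Among all 27025 such genes the share was 1.03%. It was 1.98% of genes called higher, 0.852% of genes called lower and 0.584% of genes not called. The windows are chr2:119351019-119351086 (+) for Chac1, chr3:50443623-50443709 (−) for Slc7a11 with a pair of matches, chr8:111033700-111033767 (+) for Aars and chr15:11399659-11399703 (−) for Tars.
Chac1: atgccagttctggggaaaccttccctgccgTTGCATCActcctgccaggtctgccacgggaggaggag
Slc7a11: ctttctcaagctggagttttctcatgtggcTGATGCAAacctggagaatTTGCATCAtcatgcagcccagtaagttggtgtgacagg
Aars: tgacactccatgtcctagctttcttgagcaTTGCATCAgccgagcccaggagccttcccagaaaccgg
Tars: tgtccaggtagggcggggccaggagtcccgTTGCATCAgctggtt
Slc7a11 and Chac1 had among the largest changes of their list, and Aars and Tars, alanyl- and threonyl-tRNA synthetase, rose by 1.05 and 1.36. In the stress response list 3 of 5 tested genes with a match rose and 10 of 15 without one. Of the synthetases with a match 3 of 4 rose, and of those without 2 of 8. Only 12 of the 20 synthetases, and 5 of the 10 that rose, had a promoter under the symbol used. The others were not searched, so the list as a whole was not compared.

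Of 33 nuclear genes of the respiratory chain 9 rose (27.3%, and 7 genes without Dohh-/- replicate 1), the median was 0.75, and by adjusted p alone 21 were higher, beside a background of 23.8%. Cycs (cytochrome c) measured 165, 173 and 228 CPM in the Dohh-/- libraries against 41.3, 53.7 and 47.8 CPM in WT (log2 fold change 1.99 ± 0.23 (SE), adjusted p = 8.55e-07) and Uqcrq and Ndufa5 differed by 1.96 and 1.69. Of the mitochondrial DNA's own transcripts, 4 of 8 tested rose, beside 14.3% of all genes: mt-Nd2 measured 474, 487 and 544 CPM against 215, 132 and 160.1 CPM (1.57), and mt-Nd1, mt-Nd4 and mt-Cytb differed by 1.55, 1.42 and 1.35, while mt-Co1 was at -0.28 and not called. The other 5 of the 13 listed (mt-Nd4l, mt-Co2, mt-Co3, mt-Atp6 and mt-Atp8) had too few counts in this table to be tested. The sum over the list overlapped between the groups, at 11024, 10874 and 9669 CPM against 10343.5, 8010 and 8776 CPM. Mitochondrial ribosomal protein genes gave 7 of 24 higher (median 0.82, and 19 by adjusted p alone), with Mrpl20 at 117, 125 and 155 CPM against 32.5, 41.4 and 35.8 CPM (1.86), and 4 when WT replicate 3 or 6 when Dohh-/- replicate 1 was left out. In the tricarboxylic acid cycle 4 of 34 genes rose and 2 fell, or 11.8% and 5.88%, below the 14.3% and 11.6% of all genes, but by adjusted p alone 15 were higher and 2 lower (median 0.30), and 3 rose without Dohh-/- replicate 1. Idh3a differed by 1.30 and Suclg2 by 1.26, while Pdk2, a kinase that restrains pyruvate entry into the cycle, fell at 3.36, 2.85 and 0.848 CPM against 23.6, 17.4 and 16.3 CPM (log2 fold change -3.01 ± 0.40 (SE), adjusted p = 5.27e-06). Of 11 histone acetyltransferase genes 2 fell and of 18 histone deacetylase genes 3 fell, or 18.2% and 16.7% beside 11.6% of all genes, and 4 deacetylase genes fell without Dohh-/- replicate 1. Hdac7 was at 295, 187 and 94.9 CPM against 687, 646 and 611 CPM (-1.75) and Hdac11 at -1.95. Kat6b, an acetyltransferase, differed by -1.73, and Jarid2, a partner of the PRC2 complex, by -1.60.

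Polyamine enzymes, upstream of hypusine, were mostly not called, 3 of 15 higher and 1 lower (20% and 6.67%, beside 14.3% and 11.6% of all genes), and 2 lower without Dohh-/- replicate 1. Odc1, the first enzyme, overlapped between the groups, at 627, 503 and 776 CPM against 648, 634 and 575 CPM (log2 fold change 0.04 ± 0.20 (SE), adjusted p = 0.898), and its sign turned without Dohh-/- replicate 3 (-0.13) or WT replicate 3 (-0.02). Srm, spermidine synthase, whose product donates the hypusine side chain, measured 240.2, 285 and 352 CPM against 125, 115 and 81.7 CPM (log2 fold change 1.44 ± 0.32 (SE), adjusted p = 0.00118), and Mtap, which recycles the by-product of that step, differed by 1.29. Cell cycle genes gave 8 of 35 higher and 2 lower (median 0.34, also with 1 gene of few WT counts at its ratio), or 22.9% and 5.71% beside those same shares of all genes, and 9 were higher without Dohh-/- replicate 1. Cdkn2a, encoding the p16 and p19 inhibitors, measured 7.66, 17.02 and 16.6 CPM against 0.165, 0.529 and 0 CPM (log2 fold change 5.83 ± 0.78 (SE), adjusted p = 6.81e-06, and 6.98 without WT replicate 2). Ccnd1 (cyclin D1) had 1 WT count and gave a ratio of 104 (95% counting interval 18.2 to 4147), and the replication genes Rrm2 and Tyms differed by 2.01 and 1.98. Cdkn1b, the inhibitor p27, fell, at 44.1, 30.5 and 33.8 CPM against 93.3, 85.01 and 129 CPM (log2 fold change -1.50 ± 0.23 (SE), adjusted p = 2.54e-05), whereas Mki67, Cdk1 and Top2a were not called.

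Interferon-induced genes, which include antiviral effectors and GTPases, were higher in 14 of 27 (median 1.35, the same with genes of few WT counts at their bound or ratio), or 51.9%, beside 14.3% of all genes, and 14 were higher without replicate 1. Iigp1, a GTPase, measured 4.41, 30.97 and 37.8 CPM in the Dohh-/- libraries against 0.247, 0 and 0.224 CPM in WT (log2 fold change 7.12 ± 0.75 (SE), adjusted p = 3.81e-07). Oasl2, of the oligoadenylate synthetase family, measured 1.89, 13.9 and 11.3 CPM against 0.247, 0 and 0.224 CPM (5.69), and Oas1a 4.62, 15.4 and 14.1 CPM against 0.905, 0.211 and 0.336 CPM (4.45). Isg15, a ubiquitin-like modifier, measured 19.4, 23.9 and 32.9 CPM against 3.54, 5.39 and 4.37 CPM (2.52). In Iigp1, Oasl2 and Oas1a replicate 1 was the lowest Dohh-/- library, yet above every WT library. The chemokine Cxcl10, with 2 WT counts, gave a ratio of 62.6 (95% counting interval 16.9 to 523) and Cxcl9, with no WT count, was at least 14.5-fold higher, a call that was lost without Dohh-/- replicate 2 (adjusted p = 0.0907). The signalling genes Stat2 and Irf9, and the proteasome and peptide transport genes Psmb8, Psmb9 and Tap1, were not called, nor was Irf1 (97.8, 118 and 119.7 CPM against 105, 89.3 and 94.8 CPM, 0.21). With genes counted at 50 or more on average, 7 rose.

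The interferon-stimulated response element was found on either strand in 15 of the 23 genes of that list with a promoter. Among all genes with a promoter the share was 3.99%, and 4 windows are shown to compare the element's spacing. They are chr4:156200845-156200926 (− strand) for Isg15, chr5:120907526-120907575 (−) for Oas1a, chr19:34640755-34640843 (+) for Ifit1 and chr3:142559969-142560043 (+) for Gbp3, with matches in capitals, overlapping ones as 1 run.
Isg15: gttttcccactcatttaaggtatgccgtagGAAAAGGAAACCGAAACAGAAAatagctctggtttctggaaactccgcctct
Oas1a: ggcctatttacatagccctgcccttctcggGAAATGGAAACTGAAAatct
Ifit1: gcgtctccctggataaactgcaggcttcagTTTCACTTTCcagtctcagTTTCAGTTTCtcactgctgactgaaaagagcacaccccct
Gbp3: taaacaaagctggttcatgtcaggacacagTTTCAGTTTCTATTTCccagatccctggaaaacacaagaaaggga
Ifit1 and Gbp3 rose by 1.55 and 1.35. Of tested genes of the list with a match 8 of 14 rose, and 3 of 8 without. Among all tested genes the motif was in 5.52% of those called higher, 3.15% of those called lower and 3.55% of the rest. A further 4 motifs were searched, so 8 in all, chosen with results of these data known, and no test was made on them. The AP-1 site TGACTCA was in 5.2% of all promoters and the gamma-activated site TTCNNNGAA in 8.3%. The E-box CACGTG was in 7.15% and the GATA site AGATAA in 11.2%. In genes called higher, called lower and not called, in turn, the AP-1 site was in 7.29%, 5.71% and 3.95%. For the GATA site these shares were 10.0%, 9.28% and 7.34%. They were 8.31%, 7.92% and 8.14% for the gamma-activated site, and 11.1%, 10.6% and 11.6% for the E-box.

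The same deletion was made in the other cultures, and the TH2 effect was compared with the mean of the TH1, TH17 and Treg effects by an interaction test in the same fit. In 638 genes (4.59%) the effect differed, 415 (2.99%) more positive and 223 (1.6%) more negative in TH2 cells, and 333 of the 638 were also called in TH2 cells: 178 called higher with a more positive effect, 101 called lower with a more negative effect, 18 called higher with a more negative effect and 36 called lower with a more positive one. Ifng was 3.73 in TH1, 6.37 in TH17 and 5.58 in Treg cells, against 7.99 in TH2 cells, a difference of 2.76 ± 0.56 (SE), adjusted p = 0.00375. Ccl3, the chemokine given above, differed by 2.91 ± 0.53 (SE), adjusted p = 0.00145, as its effect was 6.04 in TH1, 5.80 in TH17 and 4.74 in Treg cells against 8.44. Gzma went the other way, 6.73 in TH1, 5.32 in TH17 and 7.89 in Treg cells against 4.33 in TH2 cells, a difference of -2.31 ± 0.41 (SE), adjusted p = 0.00117. Without WT replicate 3 the number of such genes fell to 418.

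**Figure D5:**
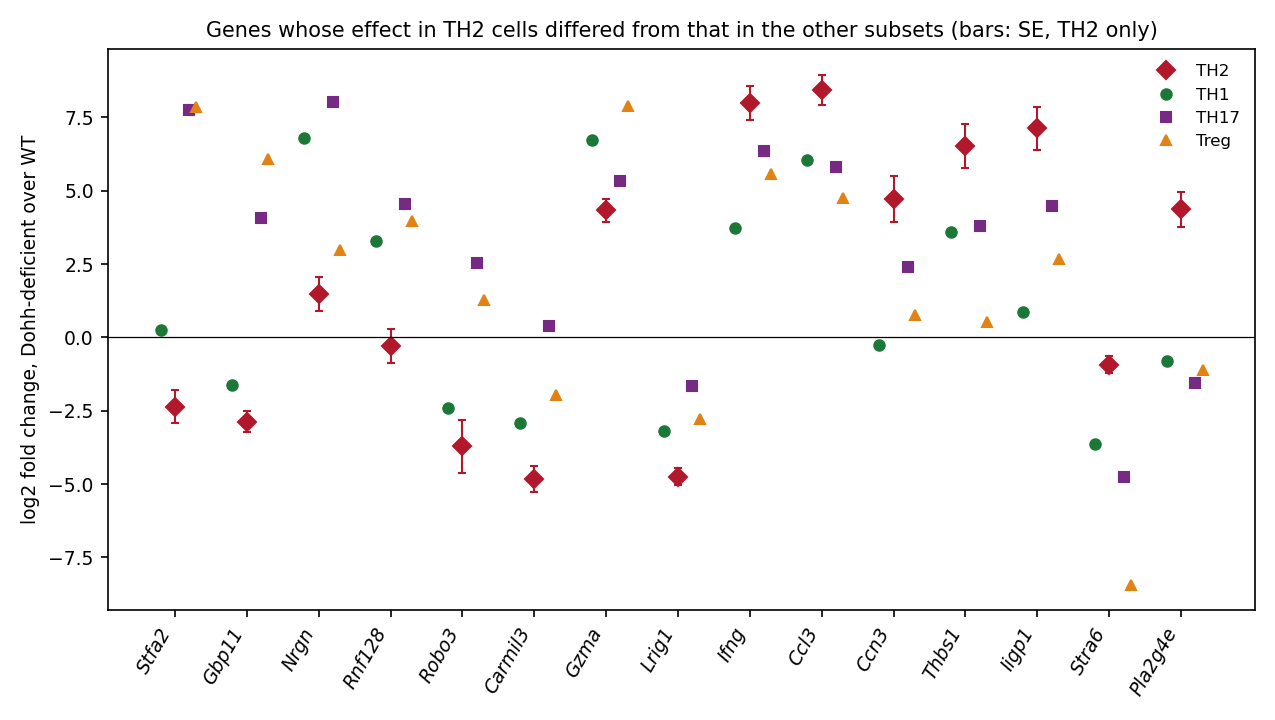
Log2 fold change of Dohh-/- over WT cells (y axis) in TH2, TH1, TH17 and Treg cultures for 15 genes whose effect differed in TH2 cells, 1 point per culture, with bars giving the SE for TH2 cells alone. Ifng lies at 7.99 in TH2 cells against 3.73 in TH1, 6.37 in TH17 and 5.58 in Treg cells.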

How the data were processed

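CD4+ T cells from spleen and lymph nodes were polarized for 4 days and RNA was sequenced from TruSeq stranded mRNA libraries. The authors deposited raw counts per gene. The submitters' processing notes name deepTools, STAR, featureCounts, DESeq2 and mm10, and the annotation release and strand setting are not given in the sources used here. The table's genes were named by Ensembl ID from a GENCODE annotation of GRCm38, and promoters came from RefSeq (GRCm38.p6). From the counts, edgeR 4.0.16 (R 4.3.3) with TMM factors, filterByExpr over all 8 groups of the Dohh experiment and robust quasi-likelihood fits gave Dohh-/- against WT in TH2 cells and the interaction with the other 3 subsets, without a replicate block, and p-values were adjusted by Benjamini-Hochberg over 13897 genes. SEs were derived from the F statistics. A call needed a log2 fold change beyond 1 and an adjusted p below 0.05. Tables and figures used Python 3.11.15, numpy 2.4.6, pandas 2.3.3, scipy 1.17.1 and matplotlib 3.10.9. On simulated counts for the TH2 comparison, 195 of 200 changed genes among 13064 were recovered with 7 false calls, and for the interaction 192 with 2. The planted log2 changes were 2 or 3 in size, in TH2 cells alone and in genes averaging above 2 CPM, with libraries drawn independently. Smaller changes, genes near the floor and effects in the other subsets were not simulated, so these figures do not give the error of the calls reported here. Libraries held 8921978 to 12554463 counts, which set the floor of 3 counts at 0.247 to 0.336 CPM. The 41 gene lists, the motifs and the genes named were chosen with earlier results of these data known. Named genes were the 10 largest gains and losses among called genes without overlap between groups at 10 CPM or more, fixed lineage and pathway genes, up to 3 called members of each list in each direction at 1 CPM or more, 5 interaction genes each way, genes at 5 loci and the 5 called genes of each direction with most counts. Other members are named by their list values, and some genes these rules name are not reported here. Alternatives were DESeq2 1.42.0, RLE factors, other filters and thresholds, the block and leaving out each replicate. Libraries of the other subsets and of the Odc experiment entered only as stated, and lineage signatures came from the Odc table's WT libraries (4 per subset).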

Additional observations from a re-analysis of the deposited data

Results flagged for a closer look

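All 15 genes given here were singled out because the effect of Dohh deficiency differed between TH2 cells and the mean of TH1, TH17 and Treg cells in the interaction test of edgeR, with adjusted p below 0.05 and a difference beyond 1 on the log2 scale. The 5 with the most positive difference among genes at 10 CPM or more in a TH2 group came first. Pla2g4e, a phospholipase A2, had an interaction of 5.52 and a log2 fold change of 4.36 in TH2 cells against -0.79 in TH1, -1.56 in TH17 and -1.12 in Treg cells. For Stra6, the retinol uptake receptor, the interaction was 4.67, from -0.93 in TH2 cells against -3.63 in TH1, -4.74 in TH17 and -8.43 in Treg cells. The interaction of Iigp1, an interferon-induced GTPase, was 4.45, with log2 fold changes of 7.12 in TH2 cells against 0.86 in TH1, 4.49 in TH17 and 2.67 in Treg cells. In Thbs1, thrombospondin 1, it was 3.88, at 6.52 in TH2 cells against 3.58 in TH1, 3.81 in TH17 and 0.53 in Treg cells. Ccn3, a matricellular protein, gave 3.75, from effects of 4.72 in TH2 cells against -0.25 in TH1, 2.39 in TH17 and 0.77 in Treg cells. In the TH2 libraries Pla2g4e measured 21.5, 6.32 and 6.47 CPM against 0.823, 0.211 and 0.5605 CPM in Dohh-/- and WT, and Stra6 measured 15.8, 34.9 and 24.4 CPM against 48.7, 57.1 and 37.1 CPM. The 5 with the most negative difference followed. Stfa2, a cysteine protease inhibitor, had an interaction of -7.65 and a log2 fold change of -2.36 in TH2 cells against 0.24 in TH1, 7.76 in TH17 and 7.84 in Treg cells. For Gbp11, a guanylate-binding protein, the interaction was -5.71, from -2.87 in TH2 cells against -1.62 in TH1, 4.07 in TH17 and 6.07 in Treg cells. The interaction of Nrgn, the calmodulin-binding neurogranin, was -4.44, with log2 fold changes of 1.49 in TH2 cells against 6.80 in TH1, 8.02 in TH17 and 2.97 in Treg cells. In Rnf128, the E3 ubiquitin ligase GRAIL, it was -4.24, at -0.30 in TH2 cells against 3.27 in TH1, 4.56 in TH17 and 3.97 in Treg cells. Robo3, an axon guidance receptor, gave -4.18, from effects of -3.71 in TH2 cells against -2.40 in TH1, 2.54 in TH17 and 1.26 in Treg cells. In the TH2 libraries Stfa2 measured 3.46, 9.27 and 2.86 CPM against 29.7, 28.5 and 22.3 CPM and Gbp11 measured 3.78, 6.22 and 6.57 CPM against 39.4, 35.8 and 46.2 CPM, while the groups of Rnf128, which was not called in TH2 cells, overlapped. Of genes named in the report for other reasons, Ifng (2.76) and Ccl3 (2.91) had the more positive effect in TH2 cells, and Gzma (-2.31), Lrig1 (-2.21) and Carmil3 (-3.32) the more negative one. With 3 samples in each group no sample was tested for standing apart from its group, and marker sums of other blood cells were given above for TH2 cells alone, so their part in these differences was not tested.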

How the results depend on the processing

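The 3595 calls (1984 higher, 1611 lower) became 2287 (1206 higher) where genes needed a mean count of 50, since fewer genes were tested, 6294 (3311 higher, 2983 lower) by adjusted p alone, and 1466 (833 and 633) by edgeR's glmTreat, which tests against the fold itself. The 638 genes of the interaction became 363 at an adjusted p below 0.01 and 119 by glmTreat. Leaving out each replicate gave 2959 to 3784 calls (1662 to 1975 higher, 1297 to 1809 lower) and 418 to 581 for the interaction, lowest without WT replicate 3. With size factors of DESeq2's kind (RLE) there were 3588 calls, with DESeq2 3639, with no filter on low counts 3529 and from the 6 TH2 libraries alone 3248, and no gene of the 3595 was called in the opposite direction in any of these or without any replicate. Odc1, not called, changed sign: its log2 fold change was -0.13 to 0.18 over the left-out replicates, with -0.13 without Dohh-/- replicate 3 and -0.02 without WT replicate 3. With the replicate number as a block there were 3628 calls and 660 for the interaction, and in an alternative chosen after seeing the data, the block with the 6 TH2 libraries alone, 3257 calls. Same-numbered Dohh-/- and WT libraries did not deviate together (correlations 0.024, -0.022 and 0.047), so the number was not used to pair them. Within a genotype, TH2 libraries and same-numbered libraries of the other subsets had correlations of -0.136 to 0.54 (median 0.231, 18 pairs), and those of other numbers -0.501 to 0.305 (median -0.105, 36 pairs). The interaction was fitted without that number, and with it as a replicate block within genotype there were 668 genes. Of 187 named genes, all kept their side of the threshold with DESeq2, RLE factors and the block, 5 lost the call with no filter, and 4 to 12 did without 1 replicate. With 3 samples a group, libraries of 8921978 to 12554463 counts and a per-library floor of 0.247 to 0.336 CPM (3 counts), changes of genes below that level were not detectable, and intervals and floors cover counting error only.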

Other observations

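Among the genes with most counts in TH2 cells, the called ones included cytoskeletal and lectin genes. Actb, beta-actin, measured 7035, 6417 and 7810.1 CPM in the Dohh-/- libraries against 3235, 3013 and 2588 CPM in WT (log2 fold change 1.27 ± 0.19 (SE), adjusted p = 2.21e-05), so it did not serve as a constant reference here. Tmsb4x, thymosin beta 4, which binds actin monomers, measured 6854, 5378 and 6798 CPM against 2026, 3231 and 2974 CPM (1.21), and Lgals1, galectin 1, 2912, 2177 and 2734 CPM against 707, 798 and 558 CPM (1.92). Of the genes that fell with many counts, Jak3, the kinase of the common gamma chain receptors, measured 558, 434 and 314 CPM against 1343, 1028 and 1043 CPM (log2 fold change -1.39 ± 0.30 (SE), adjusted p = 0.000874). Npc2, a cholesterol carrier of lysosomes, measured 483, 471 and 483 CPM against 994, 1141 and 1039 CPM (-1.14), and Srrm2, a splicing factor, 549, 473 and 372 CPM against 1160.0, 947 and 1209.7 CPM (-1.25).

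Targets of p53 were lower more often than higher, 4 of 19 against 1, beside backgrounds of 11.6% and 14.3%, and 5 were lower without Dohh-/- replicate 1. Trp53inp1 measured 15.2, 13.6 and 10.8 CPM against 91.7, 83.2 and 146 CPM (log2 fold change -3.02 ± 0.39 (SE), adjusted p = 4.18e-06), and the death receptor gene Fas 9.23, 11.5 and 7.21 CPM against 28.6, 33.8 and 37.4 CPM (-1.83), while Cdkn1a, the p21 inhibitor, and Mdm2 were not called (0.01 and -0.07). Pmaip1, encoding the BH3-only protein Noxa, was the 1 gene called higher (1.11), and its call was lost without Dohh-/- replicate 2 (0.98) or WT replicate 1 (0.99). Of 11 MYC network genes 1 rose and 1 fell (2 without Dohh-/- replicate 1): Myc was not called (0.38), Mycn was higher (2.08) and Mxd4, a MYC antagonist, lower, at 49.7, 31.9 and 18.9 CPM against 119.6, 111 and 108 CPM (-1.75). Of 25 autophagy and lysosome genes 2 fell and 1 rose, or 8% and 4%, below the shares of all genes: Ulk1, the kinase that starts autophagy, measured 29.3, 23.7 and 19.9 CPM against 119, 97.7 and 113 CPM (log2 fold change -2.17 ± 0.22 (SE), adjusted p = 1.40e-07), Map1lc3a differed by -1.90 and Ctsd, the protease cathepsin D, by 1.38. Glycolysis genes were mostly not called, 1 of 20 lower (5%), where Pfkm measured 45.01, 42.6 and 33.7 CPM against 104, 105 and 101 CPM (-1.35), and without Dohh-/- replicate 1 3 were lower. Of 22 sterol and fatty acid synthesis genes 2 rose (9.09%), Acaca, acetyl-CoA carboxylase, at 58.4, 78.4 and 93.6 CPM against 37.8, 32.6 and 26.9 CPM (1.24) and Scd1, a desaturase, by 1.16, which fell to 0.99 without Dohh-/- replicate 3.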
